A study of Homo sapiens with 10 samples.

Results

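Late gained peaks are places in the genome where acetylation of histone H3 at lysine 27 (H3K27ac) passed set limits for a gain after 24 h of degrader treatment. After 2 h and 4 h the change stayed below a smaller limit, which does not mean that there was none. Late gained peaks number 225 of the 42067 peaks counted in the study, or 0.535%. The data are chromatin immunoprecipitation sequencing (ChIP-seq) read counts from Rh30, an established human alveolar rhabdomyosarcoma cell line, carrying a PAX3-FOXO1-FKBP fusion in every group. The groups were cells given DMSO, the solvent, and cells given dTAG47 at 500 nM, collected after 2 h, 4 h or 24 h; each group has a library A and a library B. The labels give no time for DMSO, so time in culture cannot be told apart from time on dTAG47. The labels do not say whether the line is a clone, and nothing says that libraries came from separate cultures, so p-values measure only a spread that may be technical.

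H3K27ac marks active promoters and enhancers, and enzymes add and remove it within minutes to hours. PAX3-FOXO1, the driver of this tumour type, joins the DNA-binding part of PAX3 to the activating part of FOXO1 and is known to work at enhancers that it helps to keep acetylated. FKBP is a degron: dTAG47 brings the tagged protein to the cell's ubiquitin machinery, which marks it for destruction. The fusion is best known as an activator of transcription.

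Members were chosen from the measured values. Counts were turned into CPM, counts divided by the column total and multiplied by 1000000, and L is the log2 ratio of a group's mean CPM plus 1 to the DMSO mean CPM plus 1. A late gained peak had a 24 h mean of at least 10 CPM, L at 24 h of at least 0.5 with both 24 h libraries above both DMSO libraries (27.4% of all peaks had this order), and L below 0.2 at both 2 h and 4 h. These values describe the set and support nothing. In all, 1413 peaks met the 24 h criteria. Of these, 225 were late, 758 already had L of at least 0.2 at both 2 h and 4 h and are called early gains here, and the other 430 were mixed. Every change against DMSO shares the same 2 DMSO libraries.

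Libraries held between 3540104 and 5001652 counts in peaks. At the late gained peaks this left few reads: the median count of a member was 33 in DMSO A, 32 in DMSO B, between 35 and 42 in the 2 h and 4 h libraries, and 73 and 65 in the 24 h libraries A and B. The 24 h libraries were the deepest and the third deepest of the 8, and CPM removes only the difference in totals. DMSO libraries stood 1.5-fold or more apart at 19 members and 24 h libraries at 4.

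Summed over the 225 members, the signal at 2 h and 4 h was slightly above that in DMSO, and at 24 h it was far above it. It came to 2636 and 2633 CPM in DMSO, 2717 and 2671 CPM at 2 h, 2776 and 2772 CPM at 4 h, and 4116 and 4139 CPM at 24 h. The 24 h libraries thus stood above all the others in the sum. The rule sets this order against DMSO for each library, and against 2 h and 4 h for the group means. The median member had 9.17 CPM in DMSO, 9.26 CPM at 2 h, 9.67 CPM at 4 h and 14.6 CPM at 24 h. The quartiles ran from 7.34 to 13.1 CPM in DMSO and from 11.7 to 20.8 CPM at 24 h.

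**Figure D1:**
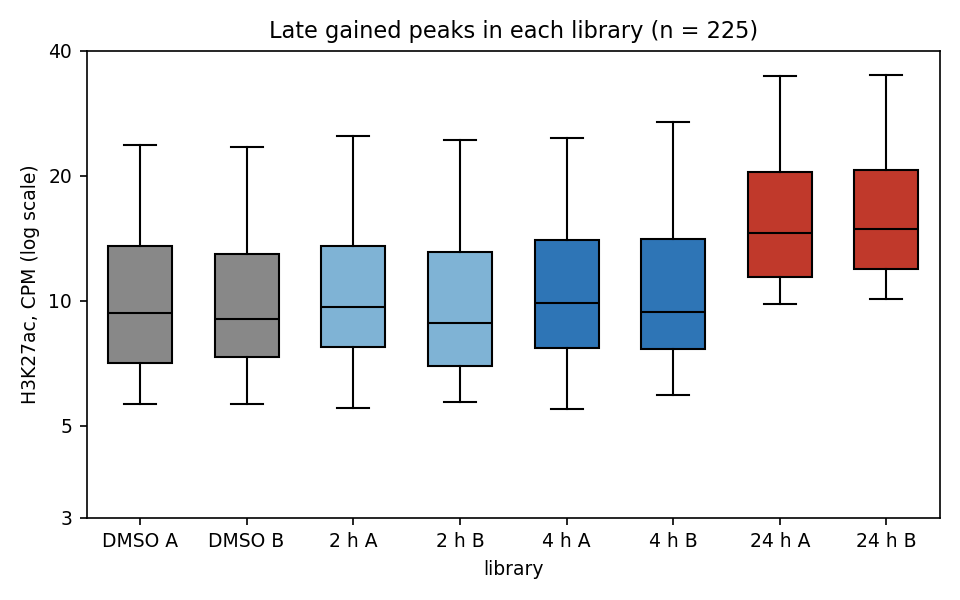
H3K27ac of the 225 late gained peaks in each of the 8 libraries, in CPM on a log axis. Boxes span the quartiles with the median as a line, and whiskers run from the 5th to the 95th percentile; the medians lie between 8.85 and 9.89 CPM in the 6 DMSO, 2 h and 4 h libraries and at 14.6 and 14.9 CPM in the 24 h libraries, a difference fixed by how the peaks were chosen.

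Late gained peaks were weak sites with modest changes. The median fold change of 24 h over DMSO was 1.55, with a range from 1.42 to 2.77. L at 24 h had a median of 0.58, lay below 0.6 in 133 members and reached 0.75 in 25 and 1 in 3. In DMSO, 125 members (55.6%) had less than 10 CPM. Their DMSO median of 9.17 CPM was close to that of the early gains, 9.31 CPM, and both were below the 24 CPM of all 26334 peaks with at least 10 CPM at 24 h. At 24 h, 8 members had 40 CPM or more, and 99 were still below the median of all peaks, 13.7 CPM.

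Members differed among themselves in the first hours, within the bounds of the rule. L at 2 h had a median of 0.03 and ran from -0.89 to 0.20. L at 4 h had a median of 0.08 and ran from -0.64 to 0.20. At 143 members L at 4 h was above L at 2 h, and at 130 the larger of the pair was between 0.1 and 0.2. L lay within 0.1 of 0 at both times in 48 members and below 0 at both times in 34. These 34 had a median L of 0.58 at 24 h, near that of the whole set. For all peaks the medians of L were 0.01, 0.02 and 0.02 at 2 h, 4 h and 24 h.

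In an edgeR quasi-likelihood fit over all peaks, 120 of the 225 members (53.3%) were called higher at 24 h than in DMSO, against 3.46% of the 41791 peaks tested. The rule used this contrast, so nothing is read from the count. The other 105 were weaker: their median was 11.9 CPM at 24 h, against 7.62 CPM in DMSO, where the called members had 20.1 CPM at 24 h, against 12.3 CPM in DMSO. None of the 225 was called higher at 2 h (0.194% of all peaks) or 4 h (0.567%) by edgeR, and none had an unadjusted p under 0.05 for a higher level there. The rule held L below 0.2 at both times, so nothing is read from this either. From 4 h to 24 h 51 members (22.7%) were called higher, against 0.438% of all peaks, and from 2 h to 24 h 107 (47.6%), against 1.69%; both contrasts use the libraries that chose the peaks. Both 24 h libraries stood above all 6 others at 217 members, against 9.3% of all peaks, an order that the rule itself favours. With the DESeq2 Wald test 8 members were called at 24 h, against 0.236% of all peaks. Without DMSO library A 45 were called, against 1.36% of all peaks, and without DMSO B 42, against 1.41%. Without 24 h library A 48 were called, against 1.59%, and without 24 h library B 59, against 1.79%.

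Most of the 8 peaks with the largest changes lay close to the minimum of 10 CPM at 24 h. A peak at chr1:95358124-95358524 (coordinates are hg19, as in the deposited table; the base from which starts are counted is not given) had 3.67 and 3.67 CPM in DMSO, 3.04 and 2.53 CPM at 2 h, 5.22 and 3.46 CPM at 4 h, and 9.80 and 10.5 CPM at 24 h. Its L was 1.26 at 24 h, and it rests on 13 and 13 counts in DMSO. The 24 h libraries were apart from all the others, and the 2 h libraries were the lowest. A peak at chr6:83686371-83686771 had 5.93 and 4.51 CPM in DMSO, 5.53 and 6.74 CPM at 2 h, 4.94 and 4.70 CPM at 4 h, and 12.2 and 13.3 CPM at 24 h (L at 24 h 1.14). The 2 h and the 4 h libraries each overlapped the DMSO libraries there.

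The third largest change was at a stronger site. On chr1:55024548-55024948, DMSO libraries had 15.5 and 12.7 CPM, 2 h libraries 14.4 and 14.5 CPM, 4 h libraries 15.7 and 12.9 CPM, and 24 h libraries 33.8 and 26.3 CPM. Its L was 0.03, 0.01 and 1.04 at 2 h, 4 h and 24 h, the flattest start of these 3 peaks. The 24 h libraries differed from each other by more than those of any other group, yet both were above all the rest. The peak lies 18382600 bases from the nearest other late gained peak on its chromosome.

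The next 5 peaks had L between 0.87 and 0.98 at 24 h. They lie at chr9:72748316-72748716 (10.7 ± 0.9 CPM at 24 h, against 4.94 ± 1.0 CPM in DMSO; SD, n = 2 each), chr6:74587857-74588257, chr1:95339945-95340345, chr19:33737795-33738195 and chr3:139633808-139634208. The chromosome 1 peak had 9.89 and 10.4 CPM in DMSO, 9.68 and 10.1 CPM at 2 h, 10.7 and 11.1 CPM at 4 h, and 19.0 and 20.4 CPM at 24 h. Libraries of each group agreed within 1.5 CPM at this site, the 4 h pair was slightly above the DMSO and 2 h libraries, and the 24 h pair was far above all of them. It lies 17779 bases from the peak at 95358124 that had the largest change.

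**Figure D2:**
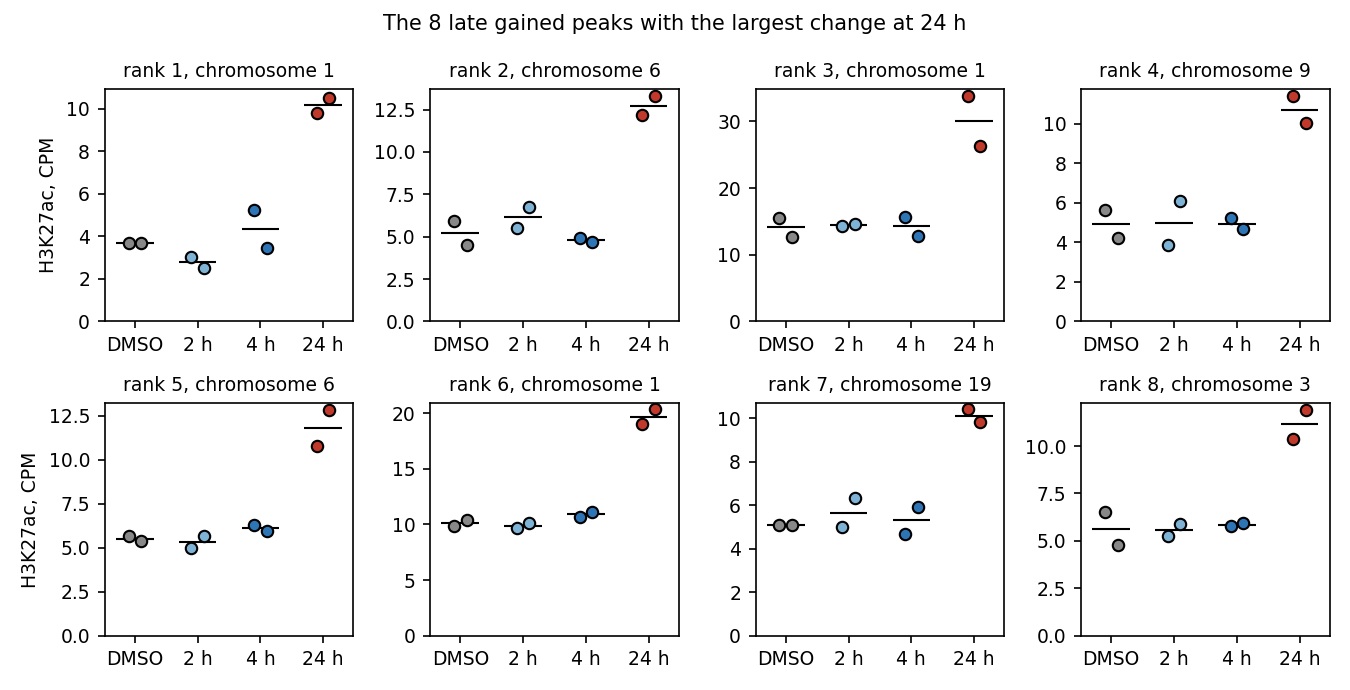
H3K27ac in CPM at the 8 late gained peaks with the largest L at 24 h, from rank 1 to 8. Each point is a library and each line the mean of a group; axes start at 0, and at all 8 peaks both 24 h libraries lie above the other 6.

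The 5 strongest members had L between 0.50 and 0.70 at 24 h. On chr4:3465109-3465509, signal was 63.3 and 58.9 CPM in DMSO, 65.5 and 71.7 CPM at 2 h, 68.1 and 67.8 CPM at 4 h, and 89.8 and 84.0 CPM at 24 h. All 4 libraries at 2 h and 4 h were already above both DMSO libraries, and L at 24 h was 0.50, just inside the limit. On chr3:139653851-139654251 it was 53.9 and 58.9 CPM in DMSO, 57.0 and 60.7 CPM at 2 h, 55.2 and 57.6 CPM at 4 h, and 78.4 and 84.45 CPM at 24 h. Here the first 3 groups overlapped. This peak is 19643 bases from the chromosome 3 peak at 139633808 named above.

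The other strong members were at chr2:107502887-107503287 (81.2 ± 1.1 CPM at 24 h, against 55.2 ± 7.8 CPM in DMSO; SD, n = 2 each), chr17:17288238-17288638 (68.3 ± 0.7 against 43.3 ± 8.9 CPM) and chr9:92218895-92219295 (61.8 ± 3.9 against 37.5 ± 3.1 CPM). At the chromosome 17 peak the DMSO libraries differed, at 37.0 and 49.6 CPM, and the 2 h and 4 h libraries lay within that span.

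At some members the signal at 4 h was below DMSO. The largest log2 change from 4 h to 24 h, 1.24, was at the chromosome 6 peak at 83686371. The next was 1.16, at chr3:13505972-13506372, with 11.02 and 5.36 CPM in DMSO, 8.85 and 5.27 CPM at 2 h, 4.12 and 5.69 CPM at 4 h, and 12.2 and 12.1 CPM at 24 h. The DMSO libraries there differ by more than those of any other group, and the higher of them is close to the 24 h level. Its L at 24 h of 0.52 was 0.13 without DMSO library B and 1.05 without DMSO A. On chr15:71940028-71940428 the libraries had 4.52 and 8.18 CPM in DMSO, 6.08 and 4.85 CPM at 2 h, 4.67 and 4.20 CPM at 4 h, and 9.40 and 10.8 CPM at 24 h. Again the DMSO pair was wide, and L at 24 h of 0.59 was 0.27 without DMSO library A and 1.00 without DMSO B. In all, 21 members had L at 2 h of -0.2 or less.

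Membership near the limits was a matter of small differences. The 3 members nearest the 24 h limit, on chromosomes 22, 4 and 16, had L of 0.50, and the 3 peaks just outside it, on chromosomes 13, 6 and 12, also had L of 0.50 to 2 decimals. One of those outside, at chr6:164198320-164198720, had 19.2 and 19.9 CPM at 24 h, against 10.7 and 16.4 CPM in DMSO, and lies 3895 bases from a member. The 3 members nearest the early limit, on chromosomes 1, 2 and 6, and the 3 peaks just outside it, on chromosomes 9, 16 and 18, all had an early L of 0.20.

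To see the gain in libraries that had not chosen the peaks, the rule was applied to the A libraries alone and the changes were read in the B libraries, and the other way round. The A libraries chose 245 peaks, with a median L of 0.60 at 24 h. In the B libraries these peaks had a median L of 0.04, 0.14 and 0.43 at 2 h, 4 h and 24 h, against 0.00, 0.01 and 0.02 for all peaks. L at 24 h was above 0 at 211 of them (86.1%), against 52.6% of all peaks. For the 295 peaks chosen with the B libraries, the A libraries gave 0.08, 0.18 and 0.43 at 2 h, 4 h and 24 h, and L at 24 h was above 0 at 262 (88.8%), against 53.1% of all peaks. With 1 library per group left there is no test.

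The gain at 24 h was thus smaller in libraries that had not chosen the peaks, and the 2 h and 4 h medians there were above those of all peaks. A 24 h level above the mean of 2 h and 4 h, which uses no DMSO library, was found at 218 of the 245 peaks (89%), against 52.5% of all peaks, and at 257 of the 295 (87.1%), against 50.7%. The whole rule was met again in the other libraries by 27 peaks in either direction, or 11% and 9.15% of those chosen, against 0.701% and 0.582% of all peaks. Early gains chosen in the same way from 1 library per group had L of 0.09, 0.19 and 0.32 at 2 h, 4 h and 24 h in the B libraries, and 0.14, 0.24 and 0.34 in the A libraries. In unused libraries the late and early sets therefore lay much closer at 2 h than in the libraries that chose them, where the medians were -0.03 and 0.47 with A and 0.02 and 0.44 with B. The difference between the late and early sets was not tested.

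**Figure D3:**
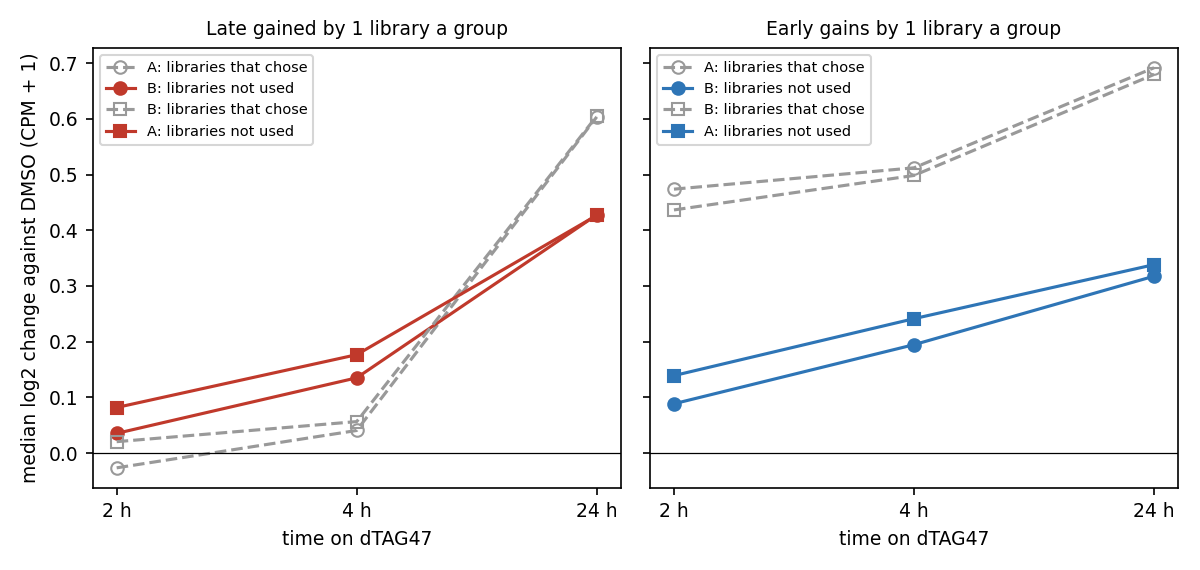
Median L at 2 h, 4 h and 24 h of peaks chosen with 1 library per group, as late gained peaks on the left and as early gains on the right. Dashed grey lines are the libraries that chose the peaks and solid lines the libraries not used; in unused libraries both late sets reach 0.43 at 24 h, and the early gains reach 0.32 and 0.34.

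Peaks next to late gained peaks were taken by position, leaving out those that met the rule themselves. Within 12500 bases of a member lay 292 other peaks, of which 53 (18.2%) were called higher at 24 h than in DMSO by edgeR, against 3.46% of all peaks. A further 4 (1.37%) were called lower, against 4.88% of all. Their median L was 0.05, 0.11 and 0.23 at 2 h, 4 h and 24 h, against 0.01, 0.02 and 0.02 for all peaks. Summed over the 292 neighbours, signal was 6432 and 6369 CPM in DMSO, 6600 and 6530 CPM at 2 h, 6749 and 6688 CPM at 4 h, and 7349 and 7344 CPM at 24 h. The libraries of the 4 groups did not overlap, and the 24 h mean was 14.8% above DMSO. The exact permutation test of 24 h against DMSO gave p = 0.333 (two-sided), the smallest that 2 against 2 libraries allow. Part of this rise came from early and mixed gains among the 292. Over the 242 neighbours that did not meet the 24 h criteria, DMSO libraries had 5738 and 5693 CPM. For these 242 the sums were 5781 and 5727 CPM at 2 h, 5840 and 5789 CPM at 4 h, and 6211 and 6183 CPM at 24 h. There the DMSO and 2 h libraries overlapped.

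The share of neighbours called higher was smaller at greater distances, a trend given with no test. It was 30% of 90 peaks with gaps up to 2000 bases and 12.9% of 202 with gaps from there to 12500 bases. It was 9.32% of 665 up to 50000 bases, 5.39% of 1874 up to 200000 bases and 3.54% of 6832 up to 1000000 bases. The median L at 24 h over the same steps was 0.37, 0.18, 0.12, 0.06 and 0.02. Some neighbouring windows are so close that the same DNA fragments may be counted in both. Without the neighbours less than 500 bases away, a check added after the counts were seen, 40 of 257 (15.6%) were called higher. Of the 292 neighbours 242 did not meet the 24 h criteria for a gain, though some of these were called higher by edgeR. Their median L was 0.01, 0.05 and 0.18 at 2 h, 4 h and 24 h. L at 24 h was above 0 at 180 of them (74.4%), against 52.0% of all peaks that did not meet the criteria. Neighbours called higher numbered 32 without DMSO library A (1.36% of all peaks were called), 25 without DMSO B (1.41%), 32 without 24 h library A (1.59%) and 32 without 24 h library B (1.79%). DESeq2 called 8 neighbours, against 0.236% of all peaks.

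Values around early gains are given for comparison. Within 12500 bases of an early gain, 110 of 983 other peaks (11.2%) were called higher at 24 h, and their median L was 0.10, 0.14 and 0.22 at 2 h, 4 h and 24 h. The sets of neighbours share some peaks, and the difference between them was not tested.

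**Figure D4:**
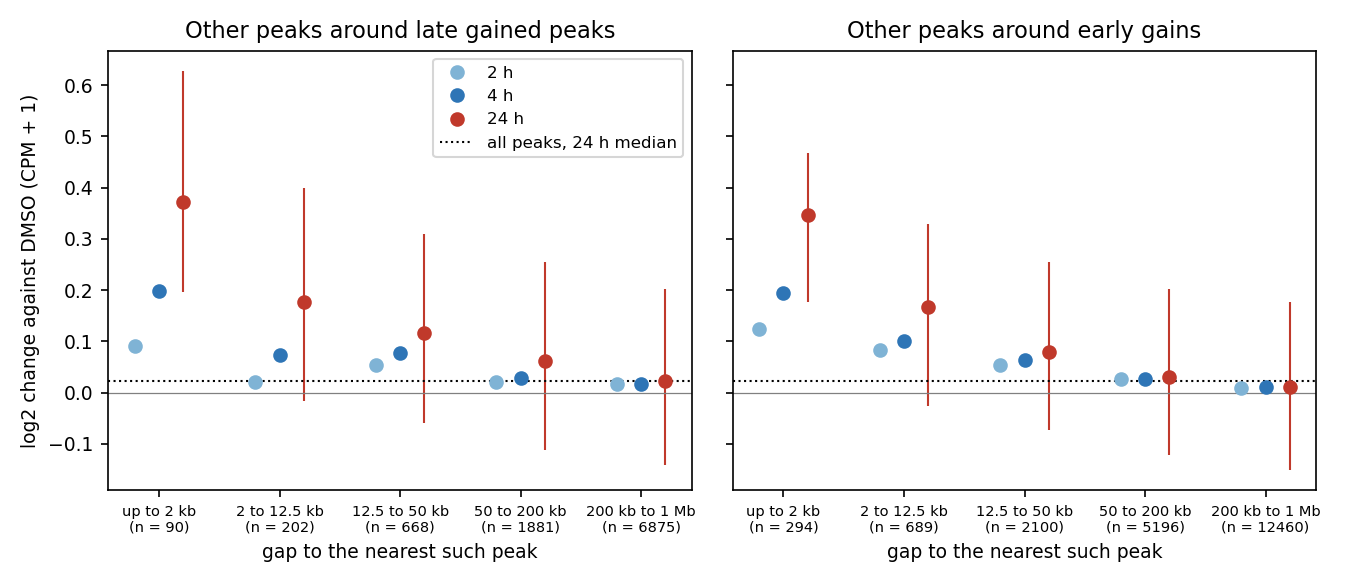
Median L of other peaks by their gap to the nearest late gained peak (left) or early gain (right), at 2 h, 4 h and 24 h; vertical lines span the quartiles at 24 h and the dotted line is the 24 h median of all peaks. Up to 2 kb from a late gained peak the medians are 0.09, 0.20 and 0.37, and at 200 kb to 1 Mb all 3 are near 0.02.

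The neighbours with the smallest p were on chromosomes 17, 1 and 20. On chr17:17412550-17412950, 2238 bases from a member, signal was 46.3 and 38.4 CPM in DMSO, 54.2 and 54.4 CPM at 2 h, 55.2 and 60.8 CPM at 4 h, and 74.98 and 70.3 CPM at 24 h. It rose at 24 h (edgeR log2 change 0.76, SE 0.10, adjusted p = 4.7e-09), and its libraries at 2 h and 4 h were already above DMSO, so it is an early gain. On chr1:95338788-95339188, 757 bases from the member at 95339945, signal was 7.91 and 7.33 CPM in DMSO, 8.29 and 12.01 CPM at 2 h, 10.2 and 11.1 CPM at 4 h, and 21.6 and 20.4 CPM at 24 h (edgeR log2 change 1.44, SE 0.21, adjusted p = 4.95e-08). At 24 h it was level with the member beside it, from a lower start.

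The other 3 of these neighbours rose as well. A peak at chr17:17410534-17410934, 222 bases from a member, had 67.4 ± 1.4 CPM at 24 h, against 41.5 ± 2.0 CPM in DMSO (SD, n = 2 each; edgeR log2 change 0.68, adjusted p = 2.91e-07). On chr20:35867085-35867485, 6509 bases from a member, signal was 18.6 and 18.5 CPM at 24 h, against 7.06 and 7.61 CPM in DMSO (edgeR log2 change 1.31, SE 0.23, adjusted p = 3.53e-06). On chr20:62510500-62510900 it was 24.2 and 25.4 CPM at 24 h, against 10.7 and 13.3 CPM in DMSO (edgeR log2 change 1.02, adjusted p = 8.32e-06). At the chromosome 17 peak and the chromosome 20 peak at 62510500, L at 4 h was 0.24 and 0.53, with both 4 h libraries above DMSO. It was 0.40 at the chromosome 20 peak at 35867085, where libraries of the same group differed. That peak had 6.08 and 10.1 CPM at 2 h and 7.14 and 12.9 CPM at 4 h. Its lower 4 h library lay within the DMSO span, so the early L there rests on 1 library. None of the 5 named neighbours had L below 0.2 at 4 h. All 5 met the 24 h criteria, and members had been left out. An L of at least 0.2 at 2 h or 4 h was therefore set by the choice, and nothing is read from it. All 5 kept their call with DESeq2, where the largest adjusted p was 0.0306, which the choice by smallest p in the same counts favours.

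Late gained peaks stood closer to other peaks than the median peak did. The median gap to the nearest peak was 4887 bases for late gained peaks and 3361 bases for early gains, against 7335 bases for peaks with at least 10 CPM at 24 h and 9693 bases for all peaks. Peaks were stitched into regions where gaps were at most 12500 bases. Alone in their region were 54 late gained peaks (24%) and 173 early gains (22.8%), against 36.1% of peaks with at least 10 CPM at 24 h and 42.9% of all peaks. Regions of 8 or more peaks held 14 late gained peaks (6.22%) and 92 early gains (12.1%), against 8.12% of peaks with at least 10 CPM at 24 h and 5.78% of all peaks. None of these differences was tested, since peaks are not replicates.

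The members were spread over 216 regions, and most stood singly as late gains. Only 9 regions held 2 of them, and none held more. Even so, another late gained peak lay within 12500 bases of 14 members (6.22%), while 0.727% of all peaks had a late gained peak that close. Within 1 Mb, 82 members (36.4%) had another late gained peak, and that share was not computed for all peaks. Neither difference was tested. An early or mixed gain lay within 12500 bases of 40 members (17.8%), against 3.83% of all peaks. A peak called lower at 24 h lay within 12500 bases of 5 members (2.22%) and of 15 early gains (1.98%), against 5.43% of all peaks.

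By chromosome, members were most numerous on chromosome 9, with 21 (9.33%), against 5.45% of all peaks and 5.41% of early gains. Chromosome 1 held 18 (8%) against 10.3% of all peaks, chromosome 17 held 15 (6.67%) against 6%, chromosome 20 held 14 (6.22%) against 3.71%, chromosome 2 held 14 (6.22%) against 8.58%, and chromosome 4 held 13 (5.78%) against 4.33%. There were 0 members among the 516 peaks of chromosome 18. These shares are descriptions with no test.

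To ask whether the rest of a region moved, the members' counts were removed from every region. The remaining counts were summed and tested with edgeR over all 26093 regions. CPM of these regions used column totals that also left out the members' counts, so it is slightly higher than CPM of single peaks. Of the 159 regions that held a member and other peaks, 46 (28.9%) rose at 24 h against DMSO, against 3.75% of all regions, and 4 (2.52%) fell, against 5.46%. The median log2 change was 0.19, against 0.00 for all regions, and 125 of the 159 were above 0. The regions compared were not matched for size or signal: of all peaks, 18061 stood alone in their region. Without DMSO library A 28 rose, against 1.79% of all regions, without DMSO B 25, against 1.9%, without 24 h library A 32, against 1.96%, and without 24 h library B 30, against 2.17%. DESeq2 called 11, against 0.434% of all regions.

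The regions with the smallest p included the one with the most signal among those with 2 members. On chr17:17348963-17445371 lie 18 peaks. Without its 2 members, the region had 495.6 and 488.6 CPM in DMSO, 521.5 and 519.5 CPM at 2 h, 529.6 and 527.2 CPM at 4 h, and 607.9 and 625.8 CPM at 24 h. The 24 h libraries were apart from the rest (edgeR log2 change 0.31, SE 0.04, adjusted p = 2.51e-10), and the change was 0.08 at 2 h (adjusted p = 0.436) and 0.10 at 4 h (adjusted p = 0.249). Its members, at 17370982 to 17371382 and 17409912 to 17410312, had 26.7 ± 1.5 and 52.7 ± 4.1 CPM at 24 h, against 18.2 ± 1.4 and 33.7 ± 0.2 CPM in DMSO (SD, n = 2 each). The second member stands within 3 kb of 2 mixed gains and an early gain, while the peaks on either side of the first did not meet the 24 h criteria. Of these, the peak at -1.17 kb from it had L of 0.35 at 4 h and 0.45 at 24 h, close to the limit of 0.5. The peak at 9.28 kb had L of 0.05 at 4 h and 0.15 at 24 h.

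**Figure D5:**
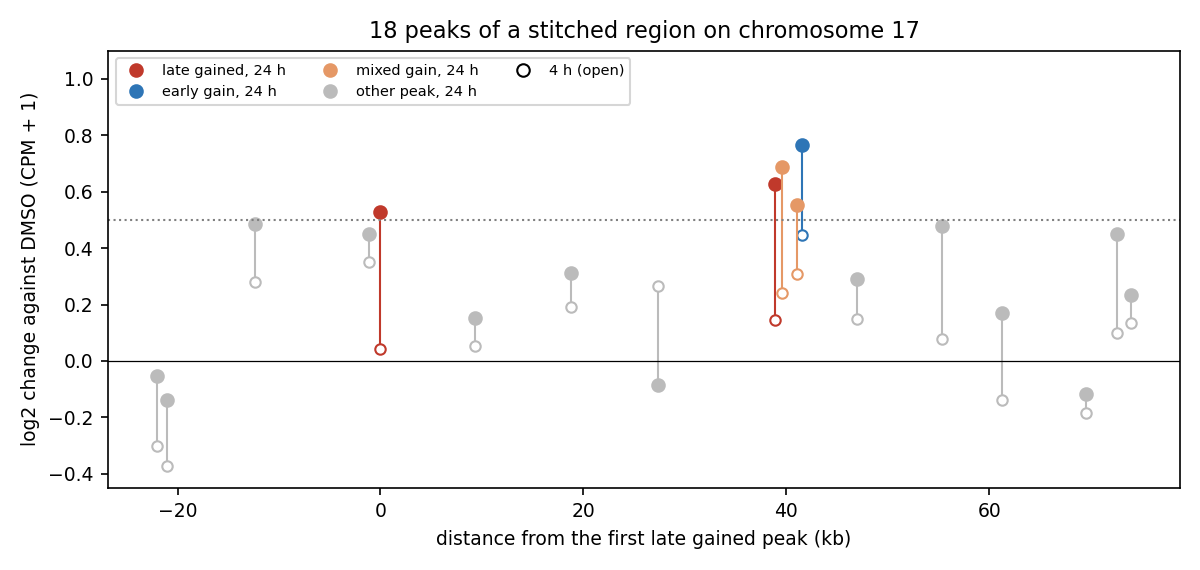
L of the 18 peaks of the stitched region on chromosome 17, by distance in kb from its first late gained peak. Filled points are 24 h and open points 4 h, and the dotted line is L of 0.5; 5 of the 18 peaks lie above it at 24 h, and 4 of these are within 3 kb of each other, about 40 kb from the first member.

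The remaining regions of this kind were smaller. On chr17:80329219-80344915, the 3 peaks beside the member had 36.0 and 32.2 CPM in DMSO, 38.8 and 40.8 CPM at 2 h, 48.2 and 39.2 CPM at 4 h, and 66.5 and 63.0 CPM at 24 h (edgeR log2 change 0.91, SE 0.11, adjusted p = 3.95e-12). Signal at 2 h and 4 h lay between DMSO and 24 h there. On chr2:17972272-17994993, the 6 other peaks had 90.3 and 108.6 CPM in DMSO, 108.7 and 104.2 CPM at 2 h, 132.7 and 129.7 CPM at 4 h, and 143.5 and 143.4 CPM at 24 h. That region had risen by 4 h (edgeR log2 change 0.39, adjusted p = 8.14e-05), whereas its member had L below 0.2 at that time, as the rule requires. On chromosome 1, the neighbour at 95338788 made up the rest of its region, and the 6 other peaks at 205196985 to 205229088 rose by 0.48 on the log2 scale (SE 0.08, edgeR adjusted p = 2.02e-07). That region had also risen by 4 h (edgeR log2 change 0.28, adjusted p = 0.0313). All 5 regions kept their call with DESeq2, where the largest adjusted p was 0.00367, which the choice by smallest p in the same counts favours.

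Among the other regions with 2 members, the gap between the members reached 16108 bases, in the chromosome 1 region at 205196985. The pairs with the next highest summed signal after that on chromosome 17 were close together. On chr9:130608929-130609329 and 130609845 to 130610245, 516 bases apart, members had 19.1 ± 1.8 and 18.1 ± 1.6 CPM at 24 h, against 12.42 ± 0.01 and 11.99 ± 2.2 CPM in DMSO (SD, n = 2 each). On chr4:37662864-37663264 and 37664344 to 37664744, 1080 bases apart, they had 17.02 ± 3.4 and 26.1 ± 0.1 CPM at 24 h, against 11.01 ± 2.4 and 17.5 ± 2.4 CPM in DMSO. Peaks this close are not independent of each other.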

How the data were processed

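The deposited table holds raw read counts per peak window for 8 H3K27ac libraries, counted by the authors over 1 common peak set, per the file headers and the values. Nearly all windows are 400 bases wide. The builds hg19 and dm3 and the tools DESeq2, DiffBind, MACS2, Bowtie2 and Trimmomatic 0.32 are listed without roles, per the submitters' processing notes. How duplicates and any spike-in were handled is not given in the sources, so a change shared by all peaks cannot be seen. The 2 input libraries were not used here. Columns were matched to groups by name. Their letters A and B could not be tied to the labels' replicate numbers, and samples were treated as unpaired. The table names no genes and the gene table at hand is of another build, so peaks have positions only, no cell type markers could be checked and no sequence is printed.

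CPM used column totals, less the members' counts for regions without their members, and L a pseudocount of 1. The count test was that of edgeR 4.0.16 under R 4.3.3 (filterByExpr, which left out 276 peaks, TMM, robust quasi-likelihood fit of all 4 groups, Benjamini-Hochberg over all peaks, threshold 0.05), and with DESeq2 1.42.0 as an alternative. TMM shifted changes at 24 h by -0.02 log2 units. The procedure was tested on simulated data. Sets of peaks were described by counts and medians beside all peaks. Named peaks were the 8 largest changes, the 5 highest signals, the 5 largest changes from 4 h, the members of 3 of the 9 regions with 2 members (those with the highest summed 24 h CPM), 3 on either side of each limit, and the 5 neighbours and 5 regions with the smallest p. Members and lists were chosen with earlier results of these data known. No intervals are printed. The SE of a log2 change is its size divided by the square root of F from the edgeR quasi-likelihood test. It thus includes counting error and the estimated spread between libraries, which may be technical.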

Additional observations from a re-analysis of the deposited data

How the results depend on the processing

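The number of late gained peaks depends on where the limits lie. Against 225 in the main setting, it was 105 with a pseudocount of 5 CPM, 460 with a 24 h minimum of 5 CPM, 60 with a minimum of 20 CPM, 25 with L at 24 h of at least 0.75, 95 with both early L below 0.1 and 426 with both below 0.3. TMM gave 198 peaks, of which 190 were among the 225, and DESeq2 size factors gave 197. Leaving out 1 library at a time gave 179 to 348 (348 without 24 h library B), with 90 of the 225 kept without DMSO library A and 106 without DMSO B. Members called higher at 24 h numbered 8 with DESeq2 (0.236% of all peaks) and 42 to 124 with 1 library left out (1.36 to 3.64% of all peaks), against 120 (3.46%). Neighbours called higher numbered 8 with DESeq2, 35 within 5 kb, 115 within 50 kb and 25 to 54 with 1 library left out, against 53. Regions without their members called higher numbered 11 with DESeq2 and 25 to 46 with 1 library left out, against 46. Calls among all peaks were also fewer with DESeq2 and without a DMSO or 24 h library, but not without a 2 h or 4 h library; the cause was not tested. Other scalings, no filter on low counts, the fit of 24 h and DMSO alone and the other stitching distances stayed within 1.5 times. The gain in unused libraries was 0.43 in each choice and 0.42 with TMM. With the library letter as a replicate block, 120 members, 54 neighbours and 46 regions were called higher. Whether the letters pair the samples is not known. Deviations of same-lettered libraries correlated between -0.03 and 0.06, which shows no strong shared effect but cannot exclude pairing. Leaving out a DMSO or 24 h library moved L at 24 h by over 1.5 times at 4 of the 25 named members (the pair named in the report for their wide DMSO pairs, and 0.38 and 0.27 without 24 h library A, against 0.59 and 0.54, at chr4:37662864-37663264 and chr1:110782672-110783072), and L then lay between 0.13 and 1.32 over all 25. The 10 named neighbours and regions kept their call in every alternative fitted. They were chosen for the smallest p in the same counts, which favours this, so nothing is read from it.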

Other observations

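Of the 216 regions with a late gained peak, 9 also held a peak called lower at 24 h by edgeR, counts looked up after the other results were seen. The same share among all regions was not computed, so nothing is read from this count. One such region is chr9:130580152-130624985, which has 9 peaks, 2 of them late gained, 1 an early gain and 1 called lower. Its summed signal was 239.9 and 242.1 CPM at 24 h, against 242.9 and 227.3 CPM in DMSO. The 24 h libraries lay within the DMSO span there, so the sum over the region did not show the change of its late gained peaks.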
